A study of Mus musculus with 13 samples.

Results

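Lipofibroblasts and alveolar fibroblasts are the stromal cells of the lung's gas exchange region, and 10 genes that mark them are described here in RNA from lung fibroblasts of mice. The 10 genes were taken by symbol from a table of 43346 genes: Plin2, Pparg, Lpl, G0s2, Inmt, Ces1d, Col13a1, Limch1, Slc7a10 and Scn7a, each of which occurred once. RNA had been sequenced in 13 libraries of 4 groups. They came from Col1a1-GFP mice aged 8 weeks at day 30 after bleomycin (n = 5) and at day 14 after bleomycin (n = 3), from lungs at day 14 after pneumonectomy (n = 3) and from sham Col1a1-GFP mice aged 8 weeks (n = 2). No day was found in the labels of the sham libraries, which are the reference for all treated groups alike. Bleomycin is a drug that injures the lung and is followed by scarring, and pneumonectomy takes out lung tissue on one side, which makes the rest of the lung grow. In Col1a1-GFP mice the fluorescent reporter is under the promoter of a collagen gene, so that cells selected by it would include any that use this promoter. The series design applies the reporter to all 4 groups, whereas the labels of the pneumonectomy libraries give no strain and no age and call the cells primary sorted fibroblasts. The pneumonectomy samples are numbered in their titles, but their columns in the table name only the group, so that these columns are called A, B and C here. No source says how mice were assigned to libraries, so that p-values measure only the spread between these samples.

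Lipofibroblasts store neutral lipid in droplets coated by perilipin 2, the product of Plin2, and the nuclear receptor encoded by Pparg turns on genes of lipid storage. In the mouse lung these cells lie beside type 2 epithelial cells and are known for supplying them with lipid. Alveolar fibroblasts are a broader class that overlaps with them and is recognised by genes such as Col13a1, Npnt and Tcf21, and some of these cells have been traced into scar-forming cells in fibrosis models.

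The values are RPKM as deposited, read numbers scaled to gene length and to library size. The depth behind them, read from the steps between low values, was 133.6 to 201.6 M reads at day 30 after bleomycin, 80.4 to 100.5 M at day 14, 69.4 to 75.9 M after pneumonectomy and 68.0 to 72.5 M in sham, with M for mega. All 10 of 10 fibroblast markers exceeded 1 RPKM in at least 1 library of each group. Their summed level was 3863 to 4444 RPKM at day 30, 3466 to 4523 RPKM at day 14 after bleomycin, 3302 to 5009 RPKM after pneumonectomy and 3311 to 4519 RPKM in sham. Single markers within these sums moved apart: Dcn (decorin) averaged 964 RPKM at day 30, 139 RPKM at day 14 after bleomycin, 635 RPKM after pneumonectomy and 1619 RPKM in sham, and Col1a1 averaged 844 RPKM at day 30, 1373 RPKM at day 14 after bleomycin, 972 RPKM after pneumonectomy and 554 RPKM in sham. The groups also differed in sex. Xist, made from the inactive X chromosome of females, was at 19.9 to 29.2 RPKM in the day 30 libraries, where the Y-linked Ddx3y was listed at 0. It was at no more than 0.0222 RPKM in the day 14 bleomycin and pneumonectomy libraries, at 15.9 RPKM in sham replicate 1, which also held Ddx3y at 2.14 RPKM, and at 0.0147 RPKM in sham replicate 2. Sex and day 30 therefore cannot be told apart in these libraries. The labels describe the preparation of the pneumonectomy libraries in other terms than that of the rest, with the same amount of RNA, and do not say whether it was done apart. Any difference in strain, age or preparation between these libraries and the rest cannot be told apart from pneumonectomy.

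To show the DNA next to the starts of genes with different patterns, the 250 bases before the RefSeq start (GRCm38.p6) are printed for Inmt, which was lowest at day 14 after bleomycin, for Slc7a10 and Col13a1, which were highest after pneumonectomy, and for Plin2, which was highest after bleomycin. Inmt lies at chr6:55174991-55175240 on the minus strand, Slc7a10 at chr7:35186135-35186384 on the plus strand, Col13a1 at chr10:61979109-61979358 on the minus strand and Plin2 at chr4:86670060-86670309 on the minus strand. Capitals mark matches on either strand to the nuclear receptor motif AGGTCA, the E-box CAGCTG, the TATA box TATAAA and the GC box GGGCGG.
Inmt: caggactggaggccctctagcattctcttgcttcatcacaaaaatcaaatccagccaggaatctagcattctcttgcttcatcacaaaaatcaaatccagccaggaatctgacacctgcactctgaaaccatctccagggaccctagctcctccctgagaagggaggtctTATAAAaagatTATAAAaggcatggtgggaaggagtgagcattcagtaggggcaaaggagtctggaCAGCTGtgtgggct
Slc7a10: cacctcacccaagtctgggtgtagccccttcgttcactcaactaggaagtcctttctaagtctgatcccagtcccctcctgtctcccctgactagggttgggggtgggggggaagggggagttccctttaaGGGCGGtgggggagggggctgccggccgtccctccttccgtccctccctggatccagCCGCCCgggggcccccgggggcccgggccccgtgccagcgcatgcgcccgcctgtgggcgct
Col13a1: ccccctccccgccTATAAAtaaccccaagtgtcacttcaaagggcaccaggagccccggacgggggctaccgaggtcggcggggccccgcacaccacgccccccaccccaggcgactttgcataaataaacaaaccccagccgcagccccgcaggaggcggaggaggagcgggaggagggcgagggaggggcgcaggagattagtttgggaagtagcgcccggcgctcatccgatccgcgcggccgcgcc
Plin2: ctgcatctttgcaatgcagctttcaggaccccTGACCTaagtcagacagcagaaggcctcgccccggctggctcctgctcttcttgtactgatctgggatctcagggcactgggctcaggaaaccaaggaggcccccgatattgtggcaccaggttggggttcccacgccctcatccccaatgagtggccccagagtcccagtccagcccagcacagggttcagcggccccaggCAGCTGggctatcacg

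GENCODE M21 (GRCm38) places Inmt at chr6:55170626-55175043, so that its annotated start reaches into the printed stretch, Slc7a10 at chr7:35186385-35201114, Col13a1 at chr10:61838236-61979108 and Plin2 at chr4:86648386-86670060. The Inmt sequence held TATAAA beginning 80 and 69 bases before the start, and a stretch of 46 bases that began 235 bases before the start and was repeated from 189 bases before it. The Plin2 sequence held AGGTCA beginning 218 bases before the start and CAGCTG beginning 16 bases before it, and Inmt also held CAGCTG, 14 bases before its start. Slc7a10 had 2 GC boxes and Col13a1 a TATAAA far from the start, 237 bases before it. Of 32851 such promoters in the RefSeq table, 14% held AGGTCA, 13% CAGCTG, 12.4% TATAAA and 32.7% GGGCGG. The DR1 element, AGGTCA repeated after a spacer of 1 base, which PPAR and RXR bind as a pair, was in 11 of them (0.0335%) and in none of the 12 promoters listed for 8 of the 10 genes. The matches are descriptions of these letters and say nothing on whether a factor binds there.

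**Figure D1:**
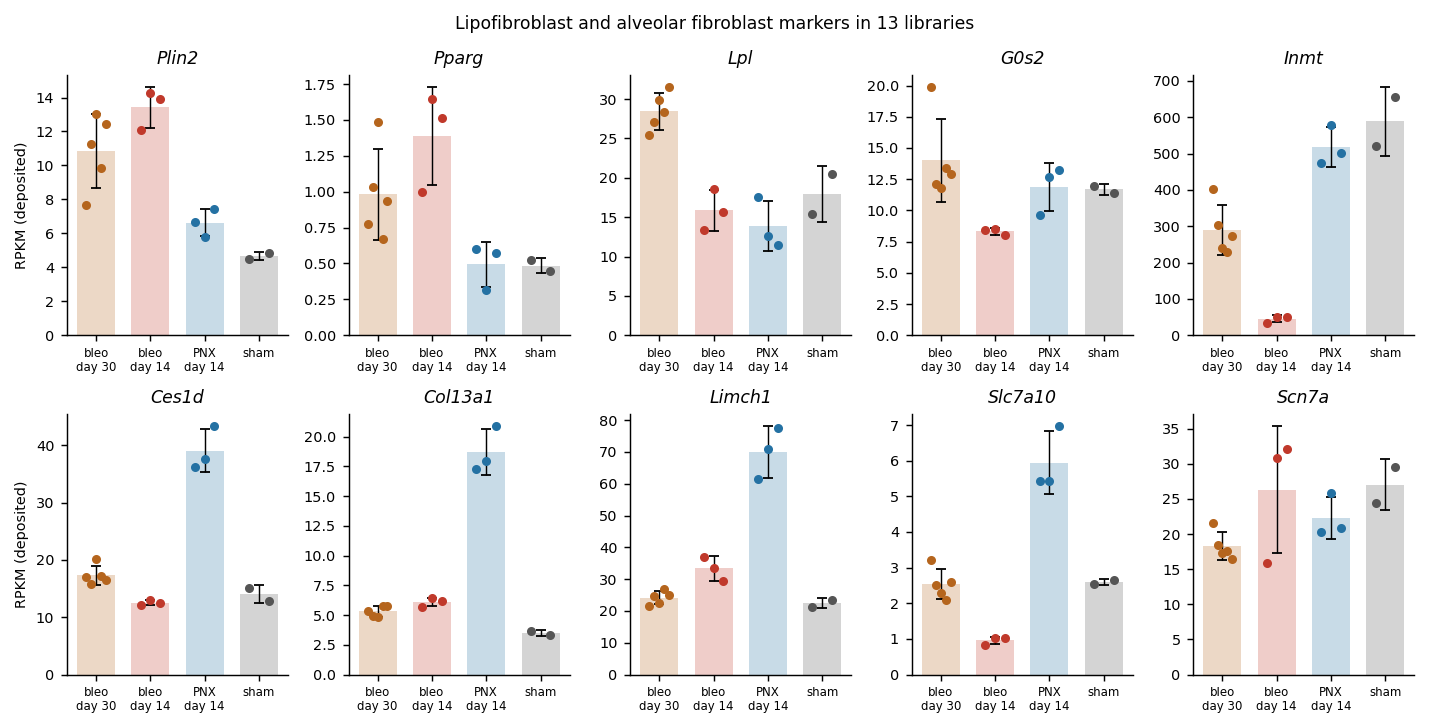
Deposited RPKM of the 10 marker genes (vertical axes, each from 0) in the 5 libraries of bleomycin day 30, 3 of bleomycin day 14, 3 of pneumonectomy (PNX) day 14 and 2 of sham. Points are libraries, bars group means and error bars SD. Inmt and Slc7a10 were lowest at day 14 after bleomycin, Ces1d, Col13a1, Limch1 and Slc7a10 were highest after pneumonectomy, and Plin2 was highest in the bleomycin groups.

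Across the groups the 10 markers did not move as 1 set. At day 14 after bleomycin 3 of the 10 were called higher than in sham and 4 lower, against 31.6% and 31.5% of the 12938 genes tested (63.1% in either direction). Both counts lay near those shares. After pneumonectomy 5 of 10 were called higher and 0 lower, against 21.5% and 20.8% of all genes (42.3%). At day 30 after bleomycin 3 of 10 were called higher and 2 lower than in sham, against 14.9% and 13.9% of all genes (28.8%). Pparg is among the genes higher at day 14 after bleomycin, and it passed the filter on low values only through bleomycin libraries, so that the other 9 markers gave 2 higher and 4 lower there. The 0 lower after pneumonectomy is from limma, which also gave 0 members lower at an unadjusted p under 0.05. In RNA from many cells together, fewer cells of a type and less RNA per cell cannot be told apart. The 13 endothelial markers summed to 353 to 673 RPKM at day 14 after bleomycin and 27.8 to 32.1 RPKM at day 30. They summed to 30.3 to 62.2 RPKM after pneumonectomy and 37.4 and 40.5 RPKM in sham. The part of endothelial RNA in the changes of the markers at day 14 after bleomycin was not tested. Calls are adjusted p under 0.05 in a limma fit over all genes and all 13 libraries, on log2 of scaled RPKM plus 0.1. The scaling divided the RPKM by 1.03 to 1.06 at day 30, by 1.12 to 1.195 at day 14 after bleomycin, by 0.819 to 0.855 after pneumonectomy and by 0.958 to 0.961 in sham, so that a log2 change can differ from the ratio of the RPKM means. Orders and overlaps of libraries given below are of deposited RPKM and can differ on the scaled values. On the scale as deposited, the median of all genes moved to 0.11 at day 30, 0.26 at day 14 after bleomycin and -0.21 after pneumonectomy, each against sham. The share of all calls that were higher was then 76.4%, 71.7% and 25.4%, in place of 51.88%, 50.04% and 50.9%. The direction of no called member turned on either other scaling that was tried.

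**Figure D2:**
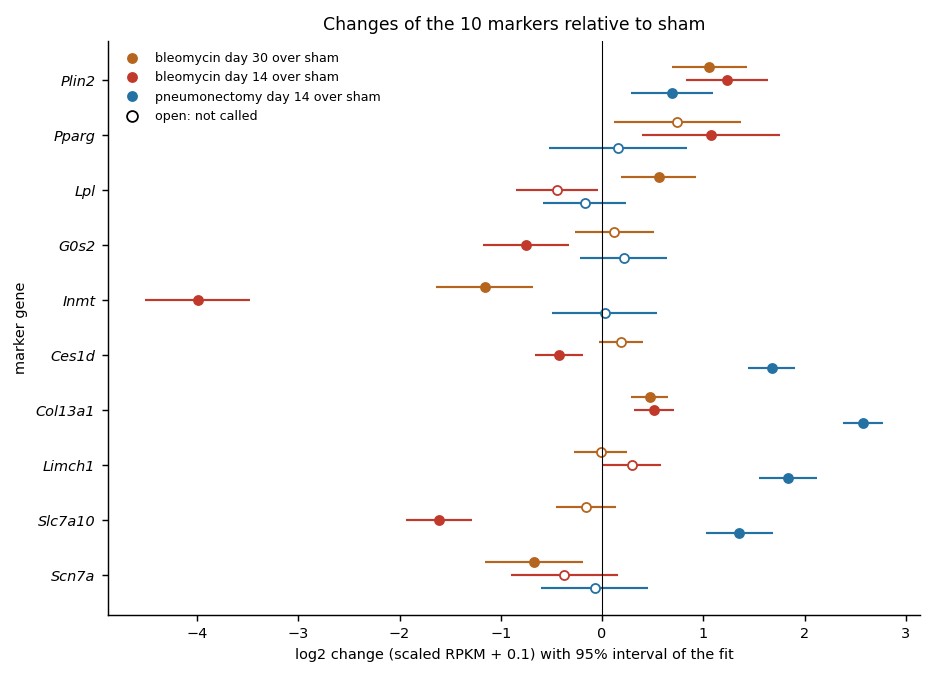
Log2 change over sham (horizontal axis, scaled RPKM plus 0.1) of the 10 marker genes for bleomycin day 30, bleomycin day 14 and pneumonectomy day 14, with the 95% interval of the fit. Filled points were called and open points were not. The Inmt point of bleomycin day 14 lies at -3.996 and the Col13a1 point of pneumonectomy at 2.58.

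Among the genes of lipid storage, Plin2 was higher in all 3 treated groups than in sham. Plin2 was at 7.65, 11.3, 13.03, 9.83 and 12.5 RPKM at day 30 after bleomycin, 12.1, 14.3 and 13.9 RPKM at day 14, 6.64, 5.81 and 7.45 RPKM after pneumonectomy, and 4.503 and 4.842 RPKM in sham. In deposited RPKM all 11 treated libraries were above both sham libraries, and the pneumonectomy libraries were below all of the bleomycin libraries. The second order did not hold on the scale of the calls. There pneumonectomy library C (7.45 RPKM, divided by 0.8549) was above day 30 replicate 1 (7.65 RPKM, divided by 1.038). The log2 change over sham was 1.06 ± 0.17 at day 30 (SE, adjusted p = 0.00133), 1.23 ± 0.18 at day 14 (adjusted p = 1.26e-04) and 0.69 ± 0.18 after pneumonectomy (adjusted p = 0.0110). Leaving out sham replicate 1 ended the last call (0.66, adjusted p = 0.0545). Between day 30 and day 14 the difference was -0.17 ± 0.15 and not called, whereas day 14 after bleomycin was above pneumonectomy by 0.54 ± 0.16 (adjusted p = 0.0118).

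Pparg, the nuclear receptor gene, was low throughout, with an estimated 70.4 to 758 reads per library. Pparg was at 0.772, 1.04, 1.49, 0.671 and 0.938 RPKM at day 30, 0.998, 1.65 and 1.52 RPKM at day 14 after bleomycin, 0.5998, 0.314 and 0.571 RPKM after pneumonectomy, and 0.522 and 0.448 RPKM in sham. In deposited RPKM the 8 bleomycin libraries lay above the 5 others. On the scale of the calls, pneumonectomy library A (0.5998 RPKM, divided by 0.8224) was above day 30 replicate 4 (0.671 RPKM, divided by 1.042). Pparg reached 1 RPKM in only 4 libraries, all of them after bleomycin, and passed the filter on low values through these, which favours a difference. With no filter its log2 change over sham at day 14 was 1.15 ± 0.32 (adjusted p = 0.0141). With the filter it was 1.07 ± 0.31 (adjusted p = 0.0103), a call that ended when sham replicate 2 was left out (0.98, adjusted p = 0.0641). At day 30 it was 0.74 ± 0.29 and not called (adjusted p = 0.0721), but was called on the scale as deposited (0.84, adjusted p = 0.0447) and without day 30 replicate 4 (0.85, adjusted p = 0.0484). After pneumonectomy the difference was 0.16 with a 95% interval of -0.52 to 0.84. Day 14 after bleomycin was above pneumonectomy by 0.99 ± 0.28 with no filter (adjusted p = 0.0152) and by 0.91 ± 0.28 with it (adjusted p = 0.0114), and the call with the filter was lost without pneumonectomy library B (0.67, adjusted p = 0.0532).

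Macrophages, and above all those of the air spaces, also use Plin2, Pparg and Lpl, and their markers were higher in the bleomycin libraries. The summed level of 14 macrophage markers was 236 to 805 RPKM at day 30, 152 to 527 RPKM at day 14 after bleomycin, 29.6 to 49.8 RPKM after pneumonectomy and 32.2 to 38.9 RPKM in sham, and 13 of the 14 were above 1 RPKM in some library of each bleomycin group. Lyz2, the lysozyme gene of macrophages, averaged 368 RPKM at day 30, 210.1 RPKM at day 14 after bleomycin, 20.3 RPKM after pneumonectomy and 15.8 RPKM in sham. Within the day 14 bleomycin group, replicate 1 had the lowest macrophage sum (152 RPKM), the lowest Plin2 and the lowest Pparg, and also the lowest endothelial sum (353 RPKM, against 624 and 673 RPKM in the other day 14 bleomycin libraries) and the lowest epithelial sum (6.09 RPKM). Within the day 30 group, replicate 3 had the highest macrophage sum (805 RPKM), the highest Plin2 and the highest Pparg, and it also held epithelial markers at a summed 1414 RPKM, against 11.0 to 20.4 RPKM in the other day 30 libraries. The lowest macrophage sum at day 30 was in replicate 1 (236 RPKM), which had the lowest Plin2, whereas the lowest Pparg was in replicate 4, with a macrophage sum of 456 RPKM. Without replicate 3, Plin2 at day 30 kept its call over sham (0.98, adjusted p = 0.00232). The remaining day 30 libraries still had macrophage sums of 236 to 571 RPKM, so that this cannot show the part of macrophage RNA. The part of RNA from these cells in the levels of Plin2 and Pparg was not tested. Of 6 adipocyte markers, 0 reached 1 RPKM in any library, and Adipoq averaged 0.133 RPKM at day 30, 0.0200 RPKM at day 14 after bleomycin, 0.0565 RPKM after pneumonectomy and 0.0758 RPKM in sham.

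**Figure D3:**
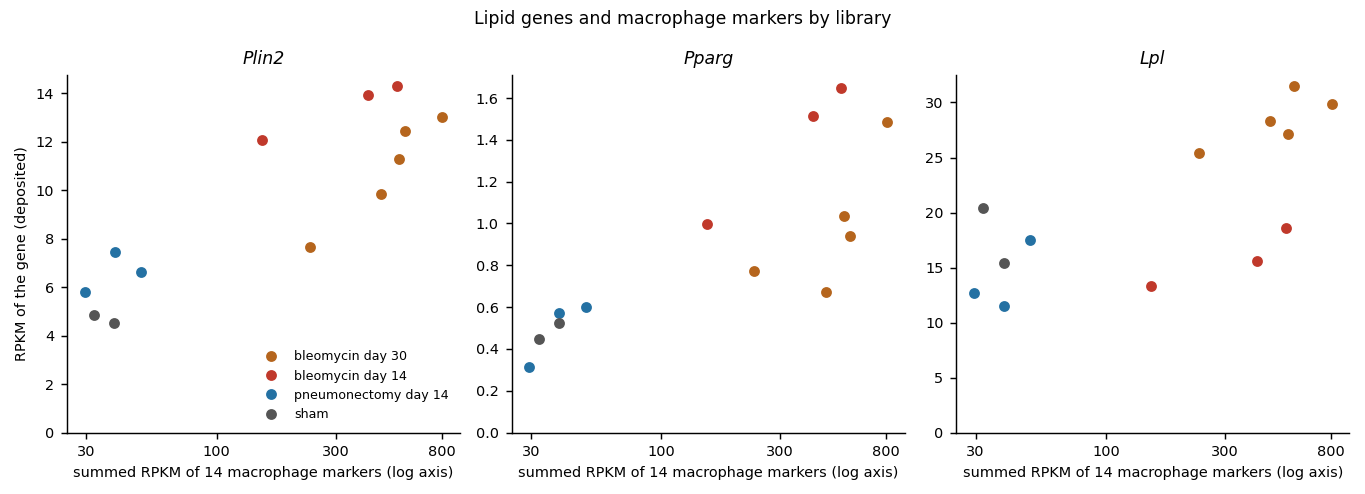
Deposited RPKM of Plin2, Pparg and Lpl (vertical axes, from 0) against the summed RPKM of 14 macrophage markers (horizontal log axis) in the 13 libraries, coloured by group. The 8 bleomycin libraries have both a macrophage sum of at least 152 RPKM and Plin2 of at least 7.65 RPKM, while Lpl is at or above 25.4 RPKM at day 30 and at or below 18.6 RPKM at day 14 after bleomycin.

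Lpl, the lipase that releases fatty acids from lipoproteins, was highest at day 30. Its range was 25.4 to 31.5 RPKM there, with a median of 28.3, against 13.3 to 18.6 RPKM at day 14 after bleomycin, 11.5 to 17.5 RPKM after pneumonectomy and 15.4 and 20.4 RPKM in sham. All 5 day 30 libraries were above the other 8, and the other 3 groups overlapped. Lpl rose by 1.00 ± 0.15 on the log2 scale at day 30 over day 14 (adjusted p = 1.31e-04) and by 0.56 ± 0.17 over sham (adjusted p = 0.0309). The call over sham ended with sham replicate 1 left out (0.36, adjusted p = 0.267) and without day 30 replicate 3, 4 or 5 (0.53 to 0.56, adjusted p = 0.0511 to 0.0600). Lpl at day 14 after bleomycin differed from sham by -0.45 ± 0.19 and was not called (adjusted p = 0.0545), but was called without sham replicate 1 or day 14 replicate 2 and under the filter of 5 RPKM, at -0.62, -0.53 and -0.46. After pneumonectomy it differed from sham by -0.17 ± 0.19, which was not called.

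G0s2 encodes an inhibitor of the triglyceride lipase made from Pnpla2. It was at 7.99 to 8.54 RPKM at day 14 after bleomycin, below every other library. The other groups lay at 11.8 to 19.9 RPKM at day 30, 9.65 to 13.2 RPKM after pneumonectomy and 11.4 and 12.0 RPKM in sham. It fell by 0.75 ± 0.19 on the log2 scale at day 14 against sham (adjusted p = 0.00532) and differed from pneumonectomy there by -0.96 ± 0.17 (adjusted p = 3.88e-04). Day 30 was above day 14 by 0.87 ± 0.16 (adjusted p = 5.27e-04). Against sham, neither day 30 (0.12 ± 0.18) nor pneumonectomy (0.21 ± 0.19) was called. G0s2 is also abundant in neutrophils, whose 8 markers summed to 23.2 to 65.9 RPKM at day 30, 29.1 to 40.6 RPKM at day 14 after bleomycin, 0.948 to 7.11 RPKM after pneumonectomy and 0.947 and 14.3 RPKM in sham. The neutrophil sum at day 14 after bleomycin was above that of sham while G0s2 was below it. The part of neutrophil RNA in the levels, and of endothelial RNA, was not tested.

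Inmt, a methyltransferase of small amines and the most abundant of the 10 genes, had the widest range. Inmt was at 402, 304, 240.3, 228 and 272 RPKM at day 30, 34.0, 51.5 and 49.2 RPKM at day 14 after bleomycin, 474, 578 and 501 RPKM after pneumonectomy, and 521 and 656 RPKM in sham. The day 14 bleomycin libraries were below all others, the day 30 libraries lay between them and sham, and the pneumonectomy and sham libraries overlapped. The endothelial sum was highest in the day 14 bleomycin libraries, at 353 to 673 RPKM, against 37.4 and 40.5 RPKM in sham. Its part in their low Inmt level was not tested. The mean at day 30 was 49.2% of that in sham and at day 14 after bleomycin 7.63%. The log2 change of Inmt against sham was -1.16 ± 0.22 at day 30 (adjusted p = 0.00293) and -3.996 ± 0.24 at day 14 after bleomycin (adjusted p = 1.52e-07), and day 30 was above day 14 by 2.84 ± 0.19 (adjusted p = 2.65e-07). After pneumonectomy the difference from sham was 0.03 with a 95% interval of -0.49 to 0.54, and day 14 after bleomycin was below pneumonectomy, at -4.02 ± 0.21 (adjusted p = 5.87e-08).

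Slc7a10, a transporter of small neutral amino acids, moved in opposite directions at day 14 after the 2 procedures. Slc7a10 was at 3.21, 2.50, 2.28, 2.10 and 2.59 RPKM at day 30, 0.8292, 1.02 and 1.02 RPKM at day 14 after bleomycin, 5.43, 5.43 and 6.97 RPKM after pneumonectomy, and 2.54 and 2.66 RPKM in sham. The day 14 bleomycin libraries were the 3 lowest and the pneumonectomy libraries the 3 highest of the 13, while day 30 and sham overlapped. The endothelial sum was highest at day 14 after bleomycin, and its part in the low Slc7a10 level was not tested. Against sham it fell by 1.61 ± 0.15 on the log2 scale at day 14 after bleomycin (adjusted p = 2.94e-06) and rose by 1.36 ± 0.15 after pneumonectomy (adjusted p = 5.28e-05). Day 14 after bleomycin was below pneumonectomy, at -2.96 ± 0.13 (adjusted p = 2.97e-08). Day 30 was above day 14 by 1.45 ± 0.12 (adjusted p = 1.23e-06) and differed from sham by -0.16, with a 95% interval of -0.46 to 0.14.

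Ces1d, a carboxylesterase that hydrolyses lipid esters, rose after pneumonectomy. Ces1d was at 17.0, 15.8, 20.1, 17.1 and 16.6 RPKM at day 30, 12.2, 12.96 and 12.5 RPKM at day 14 after bleomycin, 36.2, 37.6 and 43.3 RPKM after pneumonectomy, and 15.2 and 12.9 RPKM in sham. The pneumonectomy libraries stood clear of all others, and day 14 after bleomycin overlapped with sham in deposited RPKM. The rise after pneumonectomy was 1.67 ± 0.11 on the log2 scale (adjusted p = 2.23e-06), and day 14 after bleomycin was below pneumonectomy, at -2.10 ± 0.10 (adjusted p = 3.18e-08). The change at day 14 after bleomycin against sham was -0.43 ± 0.11 (adjusted p = 0.00456), and its call was lost on the scale as deposited (-0.16, adjusted p = 0.225) and without sham replicate 1 (-0.28, adjusted p = 0.0851). Day 30 was above day 14 by 0.61 ± 0.09 (adjusted p = 8.31e-05) and was not called over sham (0.19 ± 0.10), although it was on the scale as deposited (0.30, adjusted p = 0.0399). Ces1d belongs to a cluster of near-identical genes between which reads can be split. The 7 paralogs Ces1a, Ces1b, Ces1c, Ces1e, Ces1f, Ces1g and Ces1h did not pass the filter, and after pneumonectomy the highest of them, Ces1f, averaged 0.105 RPKM.

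Col13a1, which encodes a collagen that spans the cell membrane, was higher in every treated library than in sham. Col13a1 was at 5.37, 4.90, 4.799, 5.78 and 5.78 RPKM at day 30, 5.70, 6.40 and 6.17 RPKM at day 14 after bleomycin, 17.3, 17.9 and 20.9 RPKM after pneumonectomy, and 3.69 and 3.34 RPKM in sham. The pneumonectomy libraries were highest, the bleomycin groups overlapped, and sham was lowest. The log2 change over sham was 0.47 ± 0.08 at day 30 (adjusted p = 0.00217), 0.51 ± 0.09 at day 14 after bleomycin (adjusted p = 4.34e-04) and 2.58 ± 0.09 after pneumonectomy (adjusted p = 5.77e-08). Day 14 after bleomycin was below pneumonectomy, at -2.07 ± 0.08 (adjusted p = 1.14e-08), and day 30 and day 14 did not pass the test against each other (-0.04 ± 0.07).

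Limch1 encodes a protein that binds actin and activates non-muscle myosin. Limch1 was at 21.7, 24.6, 22.6, 26.7 and 24.9 RPKM at day 30, 37.0, 33.6 and 29.4 RPKM at day 14 after bleomycin, 61.3, 70.8 and 77.6 RPKM after pneumonectomy, and 21.3 and 23.5 RPKM in sham. In deposited RPKM the pneumonectomy libraries were the highest and the day 14 bleomycin libraries came next, while day 30 overlapped with sham. On the scale of the calls, day 14 replicate 3 (29.4 RPKM, divided by 1.195) was below day 30 replicate 4 (26.7 RPKM, divided by 1.042). It rose by 1.83 ± 0.13 after pneumonectomy (adjusted p = 3.97e-06). The change over sham at day 14 after bleomycin was 0.29 ± 0.13 and not called (adjusted p = 0.0685), but it was called on the scale as deposited (0.56, adjusted p = 0.00182), with no filter (0.38) and without day 14 replicate 3 (0.43). Day 14 after bleomycin was below pneumonectomy, at -1.54 ± 0.12 (adjusted p = 4.96e-07). Day 30 was below day 14, at -0.31 ± 0.10 (adjusted p = 0.0237), a call lost without day 14 replicate 1 (-0.23, adjusted p = 0.0856). Day 30 differed from sham by -0.02 ± 0.12, which was not called.

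Some markers of other cell types were also higher in the pneumonectomy libraries, where Slc7a10, Ces1d, Col13a1 and Limch1 were highest. The 12 epithelial markers summed to 513, 105 and 49.97 RPKM in libraries A, B and C, against 16.0 and 21.4 RPKM in sham, and 8 of them exceeded 1 RPKM in some pneumonectomy library. The 6 mesothelial markers summed to 19.7, 12.2 and 39.7 RPKM, against 2.00 and 3.27 RPKM in sham, and all 6 exceeded 1 RPKM. The 7 lymphocyte markers summed to 2.03 to 4.49 RPKM, against 0.623 and 1.13 RPKM in sham, and 1 exceeded 1 RPKM. The 13 endothelial markers summed to 49.3, 30.3 and 62.2 RPKM, against 40.5 and 37.4 RPKM in sham, with 11 called higher and 1 lower. The 11 pericyte and smooth muscle markers summed to 287.6, 305.4 and 408.6 RPKM, against 305.5 and 170 RPKM in sham. Of these, 6 were called higher and 1 lower. Of the epithelial markers, 8 were tested and 0 called. All genes gave 21.5% higher and 20.8% lower. Library A, with the highest epithelial sum, had the lowest Ces1d, Col13a1 and Limch1 of the 3. Library C, with the highest mesothelial, endothelial, and pericyte and smooth muscle sums of the 3, had the highest level of all 4 genes. The part of RNA from these cells in the 4 levels was not tested.

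Scn7a, a sodium channel gene known for a role in sensing sodium levels, varied least. It was at 16.4 to 21.5 RPKM at day 30, 15.9 to 32.2 RPKM at day 14 after bleomycin, 20.2 to 25.8 RPKM after pneumonectomy and 24.5 and 29.6 RPKM in sham. Each group's range overlapped with that of its neighbour in the order of means, and day 14 replicate 1, at 15.9 RPKM, was the lowest of the 13 libraries. Day 30 was below sham, at -0.68 ± 0.22 (adjusted p = 0.0399). This call was lost without either sham library, without day 30 replicate 2, 3, 4 or 5 (-0.81 to -0.54, adjusted p = 0.0594 to 0.241), with no filter (-0.64) and on the scale as deposited (-0.56). Neither day 14 after bleomycin (-0.37 ± 0.24) nor pneumonectomy (-0.07 ± 0.24) was called against sham. Day 30 against day 14, at -0.31 ± 0.19, was called only without day 14 replicate 1 (-0.64, adjusted p = 0.00207). Scn7a is also a gene of glial cells of nerves, whose 7 Schwann cell markers summed to 4.51 to 7.14 RPKM at day 30. The sums were 2.93 to 4.13 RPKM at day 14 after bleomycin, 2.79 to 6.88 RPKM after pneumonectomy and 3.096 and 4.055 RPKM in sham. The part of glial RNA in the Scn7a level was not tested.

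Set side by side, day 14 after bleomycin and day 14 after pneumonectomy differed in 8 of the 10 markers, 2 higher (Plin2 and Pparg) and 6 lower (G0s2, Inmt, Ces1d, Col13a1, Limch1 and Slc7a10), against 35.7% and 35.1% of all genes (70.8%). The count in either direction, 8 of 10, lay near the share of all genes. Of the 9 without Pparg, which the filter admitted through bleomycin libraries, 1 was higher and 6 lower. Lpl and Scn7a were not called, and their signs turned on the scale as deposited, at 0.20 and 0.18 in place of -0.27 and -0.30. Between day 30 and day 14 after bleomycin, 5 of 10 were higher (Lpl, G0s2, Inmt, Ces1d and Slc7a10) and 1 lower (Limch1), against 31.2% and 28.3% of all genes (59.4%). Here too the count in either direction lay near the share of all genes. These comparisons share libraries with those against sham and do not add to them. Among the members, the profiles nearest to each other over the 13 libraries were those of Col13a1 and Limch1, with a mean absolute difference of 0.23 between their centred log2 values, and of Plin2 and Pparg, with 0.24. The largest such difference was 1.57, between Inmt and Pparg.

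Genes outside the list with the nearest profiles were named by the same distance, the 2 nearest for each member among protein-coding genes. For Ces1d they were Enpep, which encodes an aminopeptidase, and Chka, a choline kinase, at 0.09 and 0.14. For Col13a1 they were Frat2 and Npnt, a basement membrane protein gene, at 0.16 and 0.17. For Limch1 they were Nebl (nebulette, an actin-binding protein) and Hsd11b1 (an enzyme that activates glucocorticoids), at 0.14 and 0.16. For Slc7a10 they were Tmem132c and the basement membrane collagen Col4a5, at 0.14 and 0.18, and for Inmt the dipeptidase gene Dpep1 and the hexosamine pathway gene Gfpt2, at 0.22 and 0.24. For Plin2 they were the lysosomal fucosidase gene Fuca2 and Rgl3, at 0.11 and 0.13, and for Pparg Amdhd2 and Tpd52, at 0.19 and 0.21. For Lpl they were Lhfpl2 and Gpr137b, at 0.145 and 0.155, for G0s2 Ppm1k and the WNT co-receptor gene Lrp6, at 0.12 and 0.13, and for Scn7a Unc13b and Mob3c, at 0.15 and 0.16. The median distance over all genes ran from 0.40 for G0s2 to 1.26 for Inmt.

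Other markers of alveolar fibroblasts, 16 genes of which all were tested, are given here from a list that also takes in Npnt, Nebl and Hsd11b1. This list was chosen with earlier results of these data known, so that its counts are descriptions and no test of such markers. Of all genes, 14.9% were called higher and 13.9% lower at day 30 against sham. The shares were 31.6% and 31.5% at day 14 after bleomycin, and 21.5% and 20.8% after pneumonectomy. At day 30 after bleomycin 1 was higher, 7 lower and 8 not called against sham, with a median log2 change of -0.39 (all genes 6.5e-04). At day 14 after bleomycin 1 was higher, 10 lower and 5 not called, with a median of -1.07 (all genes -0.0026). The endothelial sum was highest in that group, and its part in these changes was not tested. After pneumonectomy 8 were higher, 1 lower and 7 not called, with a median of 0.56 (all genes -0.011). Fmo2, a flavin monooxygenase gene, averaged 52.1 RPKM at day 30 and 25.0 RPKM at day 14 after bleomycin, against 90.6 RPKM in sham, with log2 changes of -0.89 ± 0.13 and -2.10 ± 0.14. Tcf21, a transcription factor gene of lung mesenchyme, changed by -0.66 ± 0.15 and -2.08 ± 0.16, and Plce1, a phospholipase C gene, by -0.58 ± 0.11 and -2.17 ± 0.12. Named after their values were seen, the 1 marker higher was Fgfr4 at day 30 (0.46) and Nebl at day 14 after bleomycin (0.57), and the 1 lower after pneumonectomy was Plce1 (-0.43). The median kept its sign on both other scalings in each comparison, and the count lower at day 30 was 4 without sham replicate 2, with a median of -0.19. Without sham replicate 1 the count higher was 0 in both bleomycin groups, without day 30 replicate 1 it was 2 at day 30, and without sham replicate 2 the count lower after pneumonectomy was 0. With no filter 4 were lower at day 30. After pneumonectomy Fgfr4, a growth factor receptor gene, averaged 11.1 RPKM against 2.18 RPKM in sham, a change of 2.50 ± 0.13, and Npnt and Nebl changed by 2.31 ± 0.12 and 1.88 ± 0.16. Day 30 was above day 14 in 12 of 16, with 0 lower in limma (1, Nebl, at an unadjusted p under 0.05). All genes gave 31.2% higher and 28.3% lower there. The count lower was 2 on the scale as deposited or with the compared groups alone, and 1 without day 14 replicate 2 or day 30 replicate 4 or 5. Gdf10, a growth factor gene of the BMP family, averaged 64.1 RPKM at day 30 against 7.39 RPKM at day 14. Day 14 after bleomycin was below pneumonectomy in 15 of 16, against 35.1% of all genes. Npnt, Fgfr4 and Fmo2 had the smallest p there, at -2.46 ± 0.11, -2.48 ± 0.12 and -2.46 ± 0.13.

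**Figure D4:**
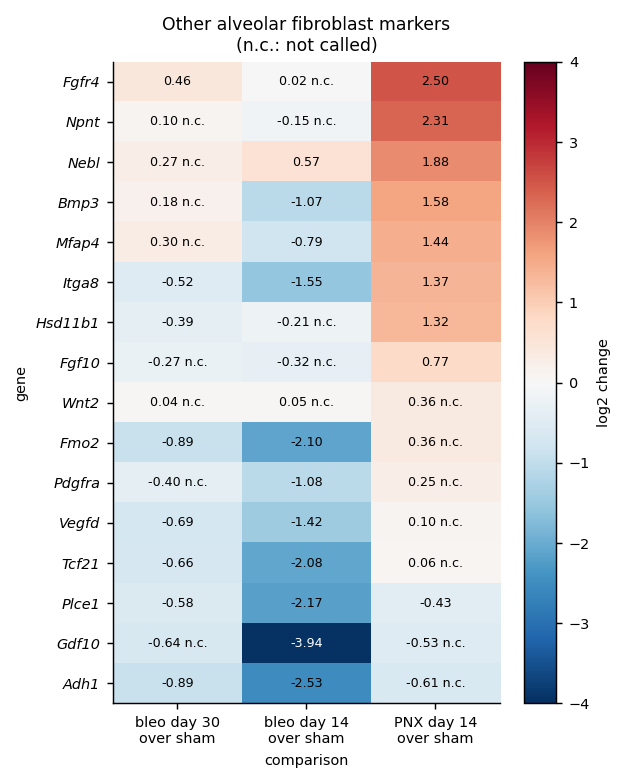
Log2 change over sham (colour, and printed in each cell) of 16 other alveolar fibroblast markers (rows, ordered by the pneumonectomy change) at day 30 and day 14 after bleomycin and at day 14 after pneumonectomy. Cells marked n.c. were not called. Fgfr4, Npnt and Nebl top the pneumonectomy column, at 2.50, 2.31 and 1.88, and Gdf10 has the lowest value, -3.94, at day 14 after bleomycin.

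Of 25 genes of lipid droplets and lipolysis, 18 were tested. After pneumonectomy 10 were higher, 1 lower and 7 not called, with a median of 0.42 (all genes -0.011). Of all genes, 21.5% were higher and 20.8% lower there. Hilpda, whose product sits on lipid droplets and inhibits lipolysis, changed by 2.11 ± 0.24, Lpin1, a phosphatidate phosphatase gene, by 0.79 ± 0.13, and Plin3, another perilipin gene, by -0.75 ± 0.09. Bleomycin at day 14 had 6 higher, 4 lower and 8 not called, against 31.6% higher and 31.5% lower of all genes. The lipase genes Lipe and Mgll averaged 7.53 and 24.7 RPKM there, against 1.12 and 5.32 RPKM in sham, changes of 2.35 ± 0.15 and 1.93 ± 0.16, while Plin3 changed by -0.99 ± 0.09. The sum of 13 endothelial markers was likewise high at day 14 after bleomycin, at 353 to 673 RPKM, against 37.4 and 40.5 RPKM in sham, and was 27.8 to 32.1 RPKM at day 30, and its part in the levels of Lipe and Mgll was not tested. At day 30 after bleomycin 3 were higher, 2 lower and 13 not called, against 14.9% higher and 13.9% lower of all genes. Hilpda changed by 1.06 ± 0.22 there, Dgat2, which makes triglyceride, by -1.43 ± 0.27, and Plin4 by -0.96 ± 0.28. Lipe and Mgll were lower at day 30 than at day 14, at -2.40 ± 0.12 and -1.75 ± 0.12. At day 30 Lipe averaged 1.18 RPKM against 1.12 RPKM in sham and was not called. After pneumonectomy 5 were higher and 3 lower on the scale as deposited, and 5 were higher without sham replicate 2. At day 30 the count higher was 1 without either sham library or without day 30 replicate 2, 3, 4 or 5.

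Lipid uptake genes and regulators of Lpl gave 14 tested of 15. Against sham, 5 were higher and 5 lower at day 14 after bleomycin, after pneumonectomy 3 higher and 0 lower (0 also at an unadjusted p under 0.05), and at day 30 after bleomycin 3 higher and 2 lower. Of all genes, 31.6% and 31.5%, 21.5% and 20.8%, and 14.9% and 13.9% were higher and lower in these comparisons. The counts at day 14 after bleomycin lay near those shares. Gpihbp1, which holds lipoprotein lipase on the capillary wall, averaged 19.1 RPKM at day 14 after bleomycin against 0.167 RPKM in sham, and Scarb1, a lipoprotein receptor gene, 14.9 RPKM against 0.802 RPKM. The fatty acid transporter gene Cd36 averaged 133 RPKM there against 1.68 RPKM in sham, a log2 change of 5.96 ± 0.61. All 3 are also used by capillary endothelium. The 13 endothelial markers summed to 353 to 673 RPKM at day 14 after bleomycin, with all 13 above 1 RPKM in some library, against 37.4 and 40.5 RPKM in sham. The sums were 27.8 to 32.1 RPKM at day 30, where Gpihbp1 averaged 0.0615 RPKM and Cd36 5.10 RPKM, and 30.3 to 62.2 RPKM after pneumonectomy, where Gpihbp1 averaged 0.421 RPKM. Gpihbp1 averaged under 1 RPKM in every group but day 14 after bleomycin. It passed the filter on low values mainly through the day 14 bleomycin libraries, where it is counted as higher, which favours a difference. The part of endothelial RNA in the changes of Gpihbp1, Scarb1 and Cd36 was not tested. Vldlr, a lipoprotein receptor gene, moved the other way, at 6.97 RPKM at day 30 and 3.47 RPKM at day 14 after bleomycin against 10.3 RPKM in sham, changes of -0.67 ± 0.14 and -1.81 ± 0.15. At day 30 the fatty acid binding protein gene Fabp5 changed by 2.31 ± 0.37 and the fatty acid transport gene Slc27a1 by 0.75 ± 0.14, where the macrophage sum was 236 to 805 RPKM against 32.2 and 38.9 RPKM in sham, and its part in these changes was not tested. After pneumonectomy Slc27a3 and Fabp3 changed by 0.87 ± 0.08 and 1.16 ± 0.34. The count higher there was 6 without pneumonectomy library B and 1 without sham replicate 2, and on the scale as deposited it was 2 higher and 2 lower. At day 30 it was 1 higher without sham replicate 2, and at day 14 after bleomycin 3 lower without sham replicate 1 or on the scale as deposited.

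Of 20 partners of Pparg and regulators of fat cell formation, 16 were tested. At day 14 after bleomycin 3 were higher and 9 lower than in sham, after pneumonectomy 4 higher and 2 lower, and at day 30 after bleomycin 2 higher and 6 lower, with medians of -0.28, 0.08 and -0.07. The shares of all genes higher and lower were 31.6% and 31.5%, 21.5% and 20.8%, and 14.9% and 13.9% in that order. Pparg itself was highest at day 14, whereas the transcription factor genes Ebf1 and Klf15 changed by -2.98 ± 0.15 and -2.78 ± 0.24 there and the coactivator gene Ncoa1 by -0.9956 ± 0.09. After pneumonectomy Cebpb, a transcription factor gene of early fat cell formation, averaged 46.4 RPKM against 14.03 RPKM in sham, a change of 1.92 ± 0.17, and Ppard and Ebf1 changed by 0.72 ± 0.10 and -1.07 ± 0.15. At day 30 Pth1r, the receptor of parathyroid hormone-related protein, which promotes the lipofibroblast phenotype, averaged 5.29 RPKM against 1.84 RPKM in sham, a change of 1.35 ± 0.19. Ebf1 and Ncoa1 changed by -1.01 ± 0.14 and -0.46 ± 0.08 at day 30. On the scale as deposited the counts were 4 higher and 5 lower at day 14 after bleomycin, 3 and 4 after pneumonectomy and 4 and 4 at day 30, and the medians after pneumonectomy and at day 30 turned to -0.13 and 0.05. The median after pneumonectomy was -0.034 on upper-quartile scaling, and the median at day 30 was 0.015 without sham replicate 1 and 0.032 with the filter of 5 RPKM. Without sham replicate 2 or day 30 replicate 2 the count higher at day 30 was 1. The count lower after pneumonectomy was 1 without library A or either sham library, and 0 with the filter of 5 RPKM.

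Of 17 target genes of PPAR factors, 14 were tested. At day 14 after bleomycin 5 were higher and 5 lower than in sham, after pneumonectomy 2 and 2, and at day 30 after bleomycin 1 and 6, with medians of 0.15, 0.14 and -0.14. All genes gave 31.6% and 31.5%, 21.5% and 20.8%, and 14.9% and 13.9% higher and lower in that order. Pdk4, a kinase that limits pyruvate oxidation, changed by -1.37 ± 0.17 at day 30 and -1.60 ± 0.18 at day 14 after bleomycin. After pneumonectomy Acaa2, a gene of fatty acid oxidation, changed by -0.61 ± 0.12. On the scale as deposited the counts were 7 higher and 2 lower at day 14 after bleomycin, 1 and 5 after pneumonectomy, where the median turned to -0.06, and 3 and 5 at day 30. Of these counts at day 14 after bleomycin, 3 were lower without day 14 replicate 2 or 3 or sham replicate 2, and 3 were higher without sham replicate 1. The count higher was 4 after pneumonectomy without library B and 3 at day 30 without replicate 1.

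Relatives of the members by gene family gave 13 tested of 29. Against sham, 6 were higher and 1 lower at day 14 after bleomycin, after pneumonectomy 5 and 0 (0 also at an unadjusted p under 0.05), and at day 30 after bleomycin 4 and 1. The shares of all genes were 31.6% and 31.5%, 21.5% and 20.8%, and 14.9% and 13.9% in that order. Scn3b, a sodium channel subunit gene, averaged 0.221 RPKM at day 30 and 20.0 RPKM at day 14 after bleomycin against 0.373 RPKM in sham, and the day 14 change was 5.11 ± 0.34. After pneumonectomy Scn3b averaged 0.3975 RPKM. It passed the filter on low values mainly through the day 14 bleomycin libraries, where it is counted as higher, which favours a difference. The endothelial sum was highest in the day 14 bleomycin group too, and its part in the Scn3b level was not tested. Scn3a averaged 2.67 RPKM after pneumonectomy against 0.659 RPKM in sham, a change of 2.05 ± 0.21, and changed by -0.63 ± 0.19 at day 30. Scn3a averaged 0.432 RPKM at day 30 and 0.272 RPKM at day 14 after bleomycin. The filter admitted it mainly through the pneumonectomy libraries, where it is counted as higher, which likewise favours a difference. Slc3a2, the heavy chain that pairs with some but not all Slc7 transporters, averaged 28.2 RPKM after pneumonectomy against 10.1 RPKM in sham (1.68 ± 0.17). Slc7a1, which is not one of its partners, changed by 0.95 ± 0.16 after pneumonectomy. Slc7a5 and Slc7a7 changed by 1.65 ± 0.20 and 1.70 ± 0.23 at day 14 after bleomycin. The macrophage sum was above that of sham in both bleomycin groups, and the endothelial sum was above it at day 14. Their part in the levels of the Slc7 genes was not tested. At day 30 Slc7a7 and Slc7a2 changed by 1.45 ± 0.21 and 1.14 ± 0.20, and the count higher was 2 without sham replicate 1 or day 30 replicate 3, 4 or 5.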

How the data were processed

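RNA-seq of lung fibroblasts was deposited as 1 table of RPKM per gene for 13 libraries; the authors had made the RPKM from reads on mm10 (GRCm38), per the submitters' processing notes. The aligner, counter and annotation are not given in the sources used here. Sham and bleomycin libraries were made from 200 ng of RNA by poly-A selection with 12 rounds of PCR (RQN 6 or more), per the labels' protocols. RPKM are not counts, so no count model was run. Depth was estimated from whole-read steps with GENCODE M21 exon lengths. The 12938 genes that reached 1 RPKM in 2 or more libraries were scaled by a trimmed mean of log ratios (30% of ratios and 5% of levels trimmed), and log2(scaled RPKM + 0.1) was fitted with limma 3.58.1 in R 4.3.3 (trend and robust), with all 13 libraries and 1 mean per group. The tests were two-sided, with Benjamini-Hochberg adjustment over all genes, and the pseudocount understates changes of low genes. The step was tested on simulated data. Other pseudocounts, filters and scalings, the compared groups alone, a replicate block and each library left out were tried. Genes named from lists were up to 3 called with the smallest p per comparison, and those like a member were the 2 at the smallest distance. Some genes that this rule names are not reported here. The markers and lists were chosen with earlier results of these data known. Promoter sequences are from RefSeq (GRCm38.p6), which matched 8 of the 10 genes, not Lpl and Ces1d.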

Additional observations from a re-analysis of the deposited data

Results flagged for a closer look

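G0s2 in replicate 1 of bleomycin day 30, at 19.9 RPKM, stood apart from the other 4 libraries of its group, which lay between 11.8 and 13.4 RPKM. The gap to the nearest library was 0.807 of the group's range, above Dixon's critical value of 0.71 for 5 samples. It was the 1 such library among 10 genes examined in this group. Chance gives about 1 in 20 for each gene, so that 1 flag among 10 genes is not unusual. The same library had the highest neutrophil marker sum of the group, 65.9 RPKM, and the lowest macrophage sum, 236 RPKM; their part in its G0s2 level was not tested.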

How the results depend on the processing

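Over 310 leave-one-out values of single genes, 280 kept direction and call, 15 lost the call, 6 gained it and 9 turned sign, and over 375 values under other settings these were 353, 8, 6 and 8; no called change turned sign. With no filter the genes lower at day 30 against sham were 1, and Limch1 there was 0.017. With the filter of 5 RPKM the genes higher at day 14 after bleomycin than after pneumonectomy were 1, since Pparg was not tested, and Inmt after pneumonectomy against sham was -0.037. On the scale as deposited 5 genes were higher and 1 lower at day 30 against sham, Limch1 there was 0.10, Pparg and Inmt after pneumonectomy against sham were -0.012 and -0.18, and Lpl and Scn7a at day 14 after bleomycin against pneumonectomy were 0.20 and 0.18. Upper-quartile scaling gave Inmt after pneumonectomy -0.087, and the share of all calls that were higher 35.3% after pneumonectomy against sham. On the scale as deposited that share was 34.8% for day 30 against day 14 and 77.4% for day 14 after bleomycin against pneumonectomy, in place of 52.45% and 50.45%, with the median gene at -0.13 and 0.47. Apart from the filter, the cause was not tested.

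Leaving out 1 library gave 1 to 2 genes lower at day 30 against sham and 1 to 2 higher at day 14 after bleomycin against pneumonectomy. It moved Limch1 between -0.087 and 0.053 and G0s2 between -0.016 and 0.17 at day 30 against sham. After pneumonectomy against sham it moved Lpl between -0.36 and 0.026, Inmt between -0.12 and 0.19 and Scn7a between -0.20 and 0.059, and at day 14 after bleomycin against pneumonectomy Scn7a between -0.45 and 0.012. Lpl at day 14 after bleomycin against pneumonectomy was called without pneumonectomy library C (-0.42, adjusted p = 0.0447).

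Same-numbered libraries of sham and bleomycin correlated in their deviations at -0.18 to 0.23 (7 pairs) and others at -0.33 to 0.28 (24 pairs), over the 1000 most variable genes. The deviations of the 2 sham libraries from their mean mirror each other, so that pairs with sham cannot show pairing. No pairing by number was seen in the remaining pairs, which are too few to exclude it. With a replicate block, 366 genes were called at day 30 against sham in place of 3728, with 0 of the 10 markers higher and 0 lower. Plin2 was then at 0.94 (adjusted p = 0.0543), Col13a1 at 0.41 (0.0712), Lpl at 0.49 (0.0903), Inmt at -0.98 (0.121) and Scn7a at -0.66 (0.229). The block gave 6772 calls at day 14 against sham, with Lpl lower at -0.46, and 6024 for day 30 against day 14. Pneumonectomy columns could not be matched to the numbers in the sample titles and had no block. Depth limits Pparg most, with as few as 70.4 reads, and sham has only 2 libraries.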
